A study of Mus musculus with 2 samples.

Results

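The genes of the transforming growth factor beta (TGF-beta) and bone morphogenetic protein (BMP) pathway were examined for accessible chromatin in mouse adipocytes. The set held 51 of the 21938 protein-coding genes of GENCODE release M21 on the nuclear chromosomes. Members were taken by symbol: Bmp, Gdf or Smad followed by a number only, and 24 named activin, TGF-beta, receptor and antagonist genes. The rule uses symbols and no measured value, but it was written with earlier results of these data known. The 51 genes were 26 ligand genes (3 TGF-beta, 5 activin and inhibin subunit, 8 BMP and 10 GDF genes), 12 receptor genes, 8 SMAD genes, 4 antagonist genes and Bmp1, which encodes a procollagen protease.

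Accessibility was measured by DNase-seq, in which the endonuclease DNase I cuts open chromatin, and the authors called peaks in each library. Adipocytes of both libraries had been differentiated in vitro for 8 days from 3T3-L1, a mouse line of fibroblast-like cells that can be turned into fat cells. The labels number them as biological replicates 1 and 2 of a single group with the same donor record, with separate biosample records and more than 1 technical replicate combined in each. They give the strain as C57BL/6J, whereas 3T3-L1 is known as a line of Swiss mouse origin, so no strain is assumed. Induction agents and differentiation dates are not given in the labels. No library of undifferentiated cells was analysed here, so nothing below is a change with differentiation.

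Ligands of this family bind pairs of type I and type II receptor kinases, and type III receptors present some ligands to them. The activated type I receptor phosphorylates receptor-activated SMADs (Smad2 and Smad3 for TGF-beta and activin, Smad1, Smad5 and Smad9 for BMP), which enter the nucleus with the common partner Smad4. Smad6 and Smad7 inhibit the receptors and are themselves SMAD targets, and secreted antagonists such as noggin, chordin, gremlin and follistatin trap ligands. In the adipose lineage, BMP4 is known to commit precursors to fat and BMP7 to favour brown fat, while TGF-beta restrains adipogenesis.

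The libraries differed in the number of peaks, with 133695 in replicate 1 and 216556 in replicate 2, and 117590 merged regions held a peak of both (shared peaks). Peak values are the authors' own whole numbers from 1 to 150 with an unknown scale, so each is given with its percentile within its own library's list, and levels were not compared between libraries. Depth was unknown. A peak in bulk chromatin cannot tell a site open in fewer cells from a site less open in each cell. Promoters of 8 of 8 adipocyte marker genes (Adipoq, Fabp4, Plin1, Cebpa, Pparg, Cidec, Lpl and Lipe) had a peak in both libraries, as did 4 of 5 preadipocyte and fibroblast markers, all but Dlk1. For other lineages the numbers were 0 of 4 endothelial, 1 of 4 blood, 2 of 4 skeletal muscle and 2 of 4 osteoblast markers. The share over all protein-coding genes was 57.2%. Among the endothelial markers, Pecam1 and Tek had a promoter peak in replicate 2 alone. Peaks of undifferentiated cells and of adipocytes cannot be told apart here.

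The palindromic SMAD-binding element GTCTAGAC lay at the promoters of both inhibitory SMAD genes, and at no other shared promoter peak of the set. Sequences here were read from the RefSeq copy of GRCm38. The Smad6 element is shown with its surroundings, the element in capitals; it spans the annotated start site at position 64022059 of GRCm38.
Smad6, chr9:64022045-64022074, plus strand: atcatatgccaGTCTAGACactttggcggc
The next sequences are the 150 bases before the annotated 5′ end of each gene, read on the strand of the gene, with CpG dinucleotides in capitals. They set 2 accessible receptor promoters, Tgfbr1 and Acvr1b, beside 2 CpG-rich ligand promoters that had no peak in either library, Bmp2 and Bmp7.
Tgfbr1, chr4:47353072-47353221, plus strand: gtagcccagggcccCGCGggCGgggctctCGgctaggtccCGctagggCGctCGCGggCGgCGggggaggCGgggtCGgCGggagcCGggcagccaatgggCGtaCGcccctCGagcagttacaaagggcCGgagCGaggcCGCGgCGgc
Acvr1b, chr15:101173917-101174066, plus strand: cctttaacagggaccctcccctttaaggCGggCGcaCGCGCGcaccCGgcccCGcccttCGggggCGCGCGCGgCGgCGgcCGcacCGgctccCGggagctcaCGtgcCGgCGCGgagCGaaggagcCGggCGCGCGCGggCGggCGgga
Bmp2, chr2:133552009-133552158, plus strand: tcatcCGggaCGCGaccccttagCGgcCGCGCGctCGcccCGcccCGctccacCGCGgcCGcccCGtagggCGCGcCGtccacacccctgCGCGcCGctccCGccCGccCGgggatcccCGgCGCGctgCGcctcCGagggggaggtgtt
Bmp7, chr2:172940322-172940471, minus strand: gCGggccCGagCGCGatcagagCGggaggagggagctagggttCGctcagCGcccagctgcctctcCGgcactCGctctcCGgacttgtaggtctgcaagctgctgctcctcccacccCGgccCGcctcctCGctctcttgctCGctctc
The 150 bases contain 22 CpG at Tgfbr1, 29 at Acvr1b, 28 at Bmp2 and 14 at Bmp7.

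Distal sites are shown as the central 150 bases of shared peaks more than 1000 bp from every start site of a protein-coding gene. Capitals mark a match to any of the 12 motifs searched, given further on. The strongest distal peaks of the set, by the mean percentile in both libraries, were at Tgfbr3, Acvr1b and Smad6, and that of Tgfb2 is added for its AP-1 match.
Tgfbr3, past the 3′ end, chr5:107087466-107087615, plus strand: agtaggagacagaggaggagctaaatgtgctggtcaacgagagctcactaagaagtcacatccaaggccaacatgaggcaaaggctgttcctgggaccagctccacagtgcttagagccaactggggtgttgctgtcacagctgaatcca
Acvr1b, intron, AP-1 match, chr15:101191636-101191785, plus strand: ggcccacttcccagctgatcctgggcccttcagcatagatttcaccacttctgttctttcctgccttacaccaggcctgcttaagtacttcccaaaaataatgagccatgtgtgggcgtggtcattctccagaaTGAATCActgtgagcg
Smad6, intron, chr9:63968676-63968825, plus strand: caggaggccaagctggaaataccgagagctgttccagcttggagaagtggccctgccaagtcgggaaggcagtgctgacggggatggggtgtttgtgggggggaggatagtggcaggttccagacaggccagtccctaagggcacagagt
Tgfb2, past the 3′ end, AP-1 match, chr1:186610006-186610155, plus strand: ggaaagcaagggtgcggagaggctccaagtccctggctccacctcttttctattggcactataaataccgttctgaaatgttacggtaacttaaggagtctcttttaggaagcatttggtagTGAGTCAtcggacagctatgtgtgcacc
The next 3 have a match to the C/EBP motif, the site of a factor family that drives adipocyte differentiation, and were the strongest such distal peaks after that of Smad7, which is not printed.
Acvr1b, intron, chr15:101182866-101183015, plus strand: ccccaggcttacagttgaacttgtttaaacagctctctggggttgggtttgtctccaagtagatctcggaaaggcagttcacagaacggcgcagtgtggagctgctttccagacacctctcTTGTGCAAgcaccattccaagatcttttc
Tgfbr3, intron, chr5:107268296-107268445, plus strand: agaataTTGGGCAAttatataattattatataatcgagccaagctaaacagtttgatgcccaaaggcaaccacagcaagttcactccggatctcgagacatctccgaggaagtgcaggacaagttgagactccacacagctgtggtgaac
Nog, intergenic, chr11:89248136-89248285, plus strand: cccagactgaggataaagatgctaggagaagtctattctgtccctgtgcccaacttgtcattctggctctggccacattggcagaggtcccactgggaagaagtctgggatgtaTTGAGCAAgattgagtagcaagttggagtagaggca
Both distal peaks with a CAGA box, an element bound by SMAD3 and SMAD4, are shown last.
Smad6, exon, chr9:64020446-64020595, plus strand: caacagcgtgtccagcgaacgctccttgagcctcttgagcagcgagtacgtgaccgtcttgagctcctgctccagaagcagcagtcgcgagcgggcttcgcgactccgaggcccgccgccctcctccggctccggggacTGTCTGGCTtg
Acvr1, intron, chr2:58513736-58513885, plus strand: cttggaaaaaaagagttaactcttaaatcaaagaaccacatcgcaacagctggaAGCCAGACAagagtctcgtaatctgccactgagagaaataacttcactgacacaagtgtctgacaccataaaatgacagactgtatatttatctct

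All 8 SMAD genes and all 4 type II receptor genes had an accessible promoter, and none of the 8 BMP ligand genes did. A promoter was counted as accessible when a peak of each library overlapped within 1000 bp of an annotated start site of the gene. That held for 29 of the 51 genes, 56.9%, beside 57.2% of all protein-coding genes, so the set as a whole did not stand out. Within the set it held for 8 of 8 SMAD genes, 9 of 12 receptor genes, 2 of 4 antagonist genes, Bmp1 and 9 of 26 ligand genes. By library, 29 members had a promoter peak in replicate 1 and 34 in replicate 2, a mean of 31.5 ± 3.54 (SD, n = 2), against 57.5% and 61.7% of all genes. With 1 group of samples there is no test between conditions, and none was made between gene lists.

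**Figure D1:**
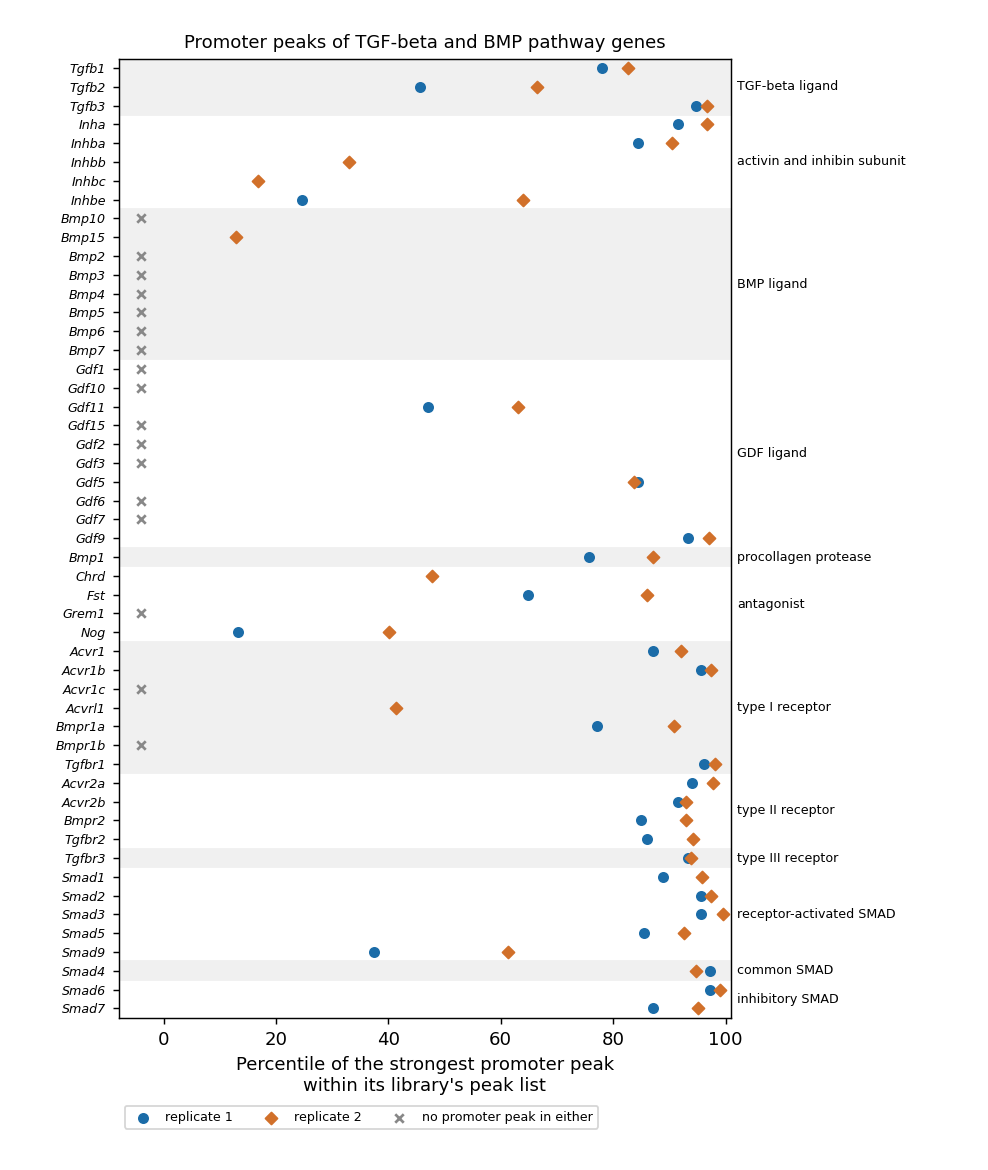
Percentile, within each library's own peak list, of the strongest peak of that library, shared or not, within 1000 bp of a start site of each of the 51 genes (x axis), grouped by role; circles are replicate 1, diamonds replicate 2 and crosses genes with no promoter peak in either library. All 8 SMAD genes have both symbols, and 7 of the 8 BMP ligand genes have a cross.

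Among the TGF-beta ligands all 3 genes had an accessible promoter. Tgfb3 had the strongest peak, on chromosome 12 from 86079476 to 86079625, at -510 bp from the nearest start site, with values of 106 in replicate 1 and 139 in replicate 2 (percentiles 94.7 and 96.7). Tgfb1, the most studied ligand of the family, had values of 72 and 109 (percentiles 78.0 and 82.6). That peak lay 444 bp past a start site and 2.37 kb past the 5′ end of the gene. Tgfb2 was the weakest, with 40 and 86 (percentiles 42.5 and 66.5). The order Tgfb3, Tgfb1, Tgfb2 was the same in both libraries.

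The activin and inhibin subunits were divided. Inhba, which encodes the subunit of activin A, had a promoter peak 560 bp past a start site with values of 82 and 124 (percentiles 84.4 and 90.4). Inha, the alpha subunit that turns activins into inhibins, had a peak of 97 and 139 at -576 bp, on chromosome 1 from 75506416 to 75506585, but a start site of Obsl1 lies 625 bp from that of Inha and is the nearer to the peak. Inhbe, known for expression in liver, had a peak of 30 and 83 (percentiles 24.7 and 64.0). Inhbb and Inhbc had promoter peaks in replicate 2 alone, with values of 56 and 45 at percentiles 33.0 and 16.8 of that list.

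No BMP ligand gene had a promoter peak in both libraries. Bmp2, Bmp3, Bmp4, Bmp5, Bmp6, Bmp7 and Bmp10 had none in either, and Bmp15, known from the oocyte, had one of value 42 in replicate 2 alone (percentile 12.8). The nearest shared peak lay at -1828 bp for Bmp2 and 1788 bp past a start site of Bmp6, 2.83 kb past the 5′ end of that gene. The nearest lay at -9422 bp for Bmp4 and at -18900 bp for Bmp7. These are the authors' calls at an unknown depth and not a measure of expression.

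Of the GDF ligands 3 of 10 had accessible promoters. Gdf11, a close relative of myostatin, had a peak of 43 and 82 (percentiles 47.1 and 63.1). Gdf5, known from joint formation, had one of 82 and 111 at -914 bp. Gdf9, another oocyte ligand, had 102 and 140 (percentiles 93.3 and 97.1) on chromosome 11 from 53430816 to 53431005, but its start site lies 192 bp from that of Uqcrq, a respiratory chain gene, which was the nearer gene to the peak. With start sites of transcripts typed as protein-coding only, Gdf9 was the 1 member that lost its promoter peak. Gdf1, Gdf2, Gdf3, Gdf6, Gdf7, Gdf10 and the stress cytokine gene Gdf15 had no promoter peak in either library.

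All 4 type II receptor genes and the type III receptor gene Tgfbr3 (betaglycan) had accessible promoters. Acvr2a, an activin receptor, had the strongest of the type II genes, with 104 and 142 (percentiles 94.1 and 97.8) on chromosome 2 from 48814036 to 48814205. Tgfbr2, which binds TGF-beta, had 85 and 133, Bmpr2 had 83 and 130, and Acvr2b had 97 and 130. Tgfbr3 had 102 and 132 (percentiles 93.3 and 93.9) on chromosome 5 from 107289496 to 107289665. In replicate 2 all 5 lay between the percentiles 93.0 and 97.8.

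Of the 7 type I receptor genes 4 had an accessible promoter. Tgfbr1, the TGF-beta type I receptor, had 111 and 143 (percentiles 96.2 and 98.1) on chromosome 4 from 47353016 to 47353185, a peak that overlaps the sequence given for this promoter. Acvr1b, an activin receptor, had 109 and 141, Acvr1 had 87 and 128, and Bmpr1a, a BMP receptor, had 71 and 125. A start site of Upp2 lies 141 bp from one of Acvr1 and is the nearer to that peak. Bmpr1b and Acvr1c had no promoter peak in either library, and Acvrl1, known from endothelium, had one in replicate 2 alone, of value 62 (percentile 41.4). Acvr1c encodes an activin-type receptor known for its expression in mature adipocytes. Its shared peak nearest to any start site lay 1386 bp past an internal one, 34.5 kb past the 5′ end of the gene. Of the shared peaks at Acvr1c, the one nearest to that 5′ end lay 2.61 kb past it.

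The strongest promoter peaks of the set, by mean percentile, were those of Smad6 and Smad3, followed by that of Tgfbr1. Smad6 had 115 and 146 (percentiles 97.2 and 99.1) on chromosome 9 from 64021996 to 64022185, at -32 bp. Smad3 had 109 and 148 (percentiles 95.6 and 99.6) on chromosome 9 from 63757976 to 63758265, and Smad4, the common partner, 115 and 134 on chromosome 18 from 73703796 to 73703945. Smad2 had 109 and 141, Smad1 91 and 137, Smad7 87 and 135, and Smad5 84 and 128. Smad9 stood below the other 7 in both libraries, with 37 and 80 (percentiles 37.5 and 61.4). The hotspot, the authors' broader region of raised cutting, at the Smad6 promoter was 3249 bp long in replicate 1 and 7044 bp in replicate 2.

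Of the 4 antagonist genes 2 had an accessible promoter. Fst, which encodes the activin trap follistatin, had 57 and 115 (percentiles 64.8 and 86.0) on chromosome 13 from 114456436 to 114456585. Nog (noggin) had 24 and 61 (percentiles 13.3 and 40.1) at -659 bp, and this call was lost with a window of 500 bp. Chrd (chordin) had a promoter peak in replicate 2 alone, of value 67, and the start site of Thpo lies 1008 bp away. Grem1 (gremlin) had no promoter peak but lay in a promoter hotspot in both libraries, 384 and 1062 bp long. Bmp1, whose product also cleaves chordin, had 65 and 117 (percentiles 72.4 and 87.0) on chromosome 14 from 70520556 to 70520725.

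Taking all 76 shared promoter peaks nearest to a member, the median percentiles were 65.3 in replicate 1 and 81.7 in replicate 2, beside 75.7 and 86.0 for the 24664 shared promoter peaks of all genes. Among those 76, 11 (14.5%) stood in the top 10% of both lists, beside 29.0% of all shared promoter peaks. Pooled in this way, the promoter peaks nearest to members were of lower rank than those of genes at large, although the strongest ones, at Smad6 and Smad3, were not. A gene can have several such peaks, and the strongest peak of each gene was not compared with that of genes at large. The peaks given above for Inha, Gdf9 and Acvr1 are nearest to another gene and so not among the 76.

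With the window of 1000 bp, CpG-rich promoters of receptor and SMAD genes were nearly all accessible, and most of those of ligand genes were not. The ratio of observed to expected CpG was taken over 1000 bp around the start site where it was highest. A peak at any start site of the gene counted, so it need not lie at that one. Of all protein-coding genes with a ratio of at least 0.6, 83.9% (9668 of 11524) had a promoter peak in both libraries. Receptor and SMAD genes were close to that, with 17 of 19 (89.5%), whereas CpG-rich ligand genes had 5 of 13 (38.5%). The 8 without were Bmp2 (ratio 1.08), Bmp4 (0.71), Bmp6 (0.81), Bmp7 (0.82), Gdf6 (0.68), Gdf7 (0.78), Gdf10 (0.74) and Inhbb (0.79). The ligand share depends on the window: at 2500 bp Bmp2, Bmp6 and Inhbb gained a promoter peak. So did the receptor genes Acvr1c and Bmpr1b, and the share of all protein-coding genes was 63.2%. At these receptor genes the shared peak nearest to a start site lay beside an internal one. It was 34.5 kb past the 5′ end of Acvr1c and 236 kb past that of Bmpr1b. Another at Acvr1c lay 2.61 kb past the 5′ end. Gdf9, among the 5, lost its peak with start sites of protein-coding transcripts only. Of the 22 members without an accessible promoter 12 (54.5%) were CpG-rich, beside 19.8% of the 9386 such genes in the genome. The set was richer in such promoters from the start, with 37 of its 51 genes, beside 11524 of all 21938. No test was made of these shares.

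**Figure D2:**
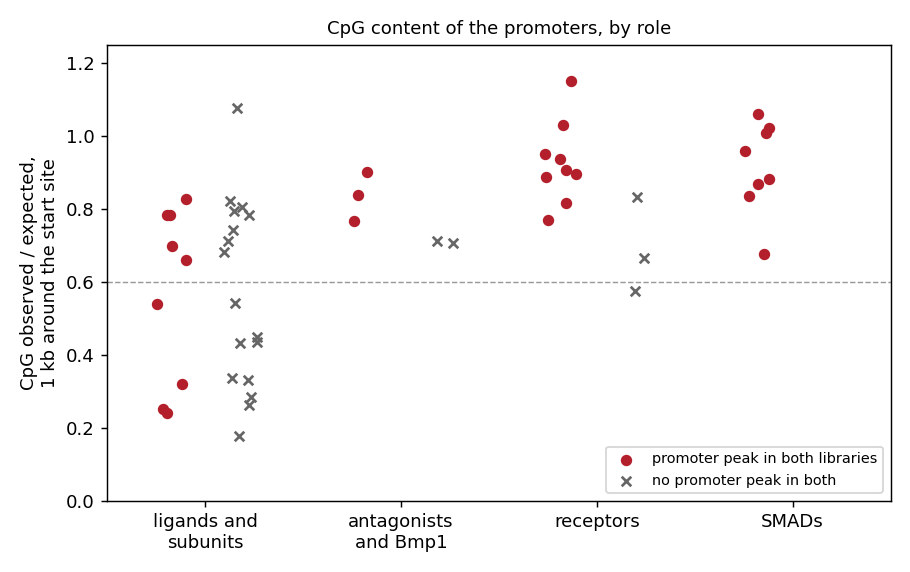
Ratio of observed to expected CpG in the 1 kb around the start site (y axis) for the 51 genes, by role; circles have a promoter peak in both libraries, crosses do not, points are spread sideways for legibility, and the dashed line is 0.6. Among ligands and subunits 8 crosses lie above the line, and the 8 SMAD genes are all circles above it.

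Distal accessible sites differed widely in number between members, from 0 at 7 genes to 43 at Tgfbr3. A shared peak more than 1000 bp from every coding start site was assigned to the nearest start site within 100 kb, which gave the members 345 of 78365 such peaks. The median was 5 per member and 2 over all protein-coding genes (6 and 2 in replicate 1 alone, 10 and 3 in replicate 2 alone). At least 1 lay nearest to 44 of the 51 members (86.3%; 67.8% of all genes), and at least 10 to 9 of them (17.6%; 9.93% of all genes). Members also had more room. The stretch within 100 kb that lies nearer to a gene's start sites than to any other, its territory, had a median of 102 kb for members and 40.7 kb for all genes. Per 100 kb of territory the pooled number was 6.48 for members and 4.95 for all genes.

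By role, the pooled number per 100 kb was 8.71 for SMAD genes, 7.50 for receptor genes and 4.53 for ligand genes. Over all protein-coding genes it was 6.68 for those with an accessible promoter and 2.70 for those without. Tgfbr3 held 43 of the 122 receptor peaks, and the other 11 receptor genes had 5.74 per 100 kb. The SMAD genes differed too, with 14.3 at Smad3, 13.5 at Smad6, 12.6 at Smad5 and 8.46 at Smad7. Smad2 had 5.34, Smad1 4.68, Smad4 4.57 and Smad9 3.02, all under the 6.68 of genes with an accessible promoter. The BMP ligands, none with an accessible promoter, had 2.93, near the 2.70 of genes without one. Their counts were 9 at Bmp5, 6 at Bmp6, 5 at Bmp3, 4 at Bmp15, 3 at Bmp4, 2 each at Bmp2 and Bmp7 and 0 at Bmp10. Bmp2 had 2 in a territory of 198 kb, with 2 peaks in each library. The TGF-beta ligands had 9.90 per 100 kb, from 15 at Tgfb2 and 9 at Tgfb3, while Tgfb1, in a territory of 14.3 kb, had none.

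**Figure D3:**
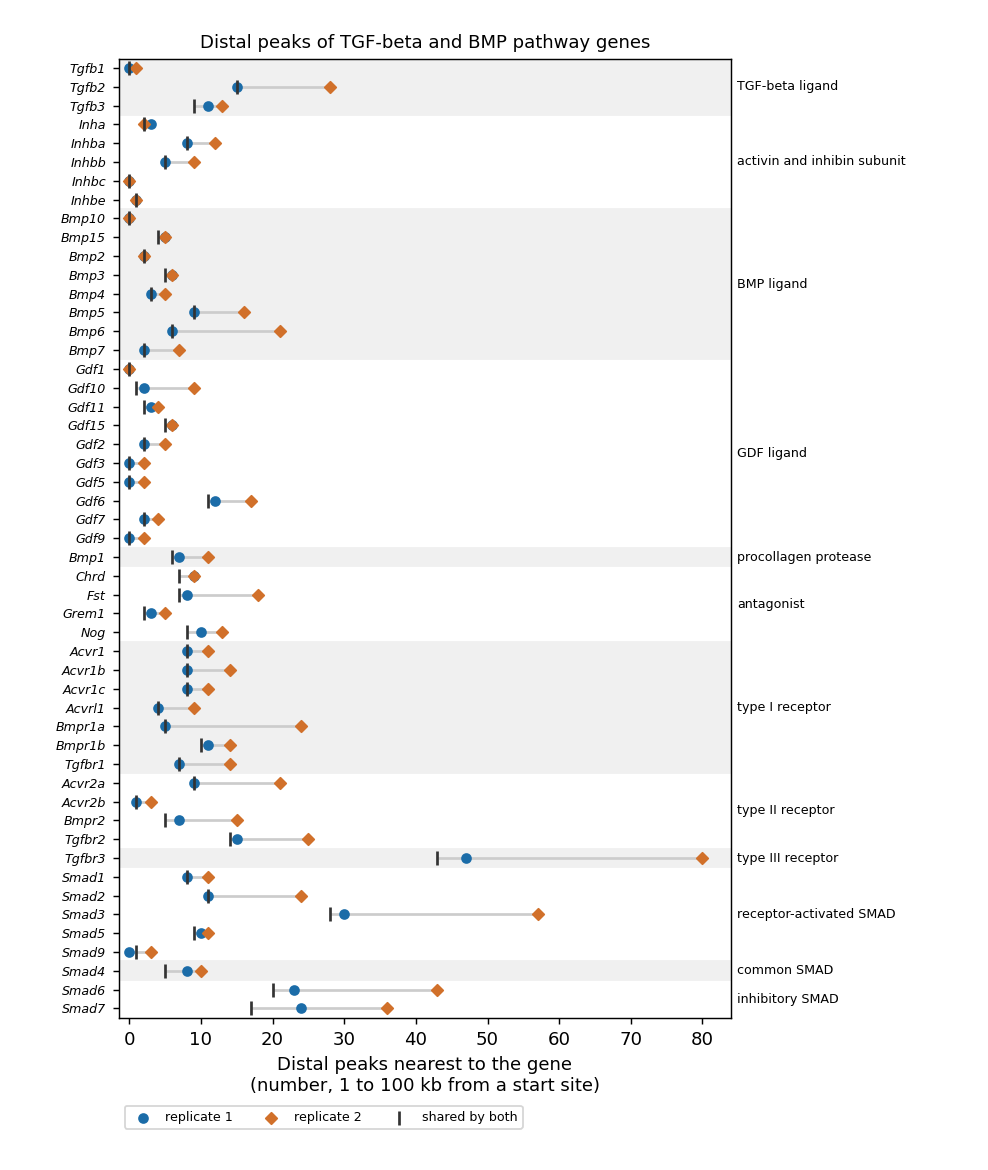
Number of distal peaks nearest to each of the 51 genes (x axis), by role; circles are peaks of replicate 1, diamonds those of replicate 2 and vertical ticks shared peaks. Tgfbr3 has 47, 80 and 43 and Smad3 has 30, 57 and 28, and replicate 2 is the higher for both.

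Tgfbr3, the betaglycan gene, had the most, with 43 shared distal peaks (47 in replicate 1 and 80 in replicate 2) at the percentile 99.9 of all genes. Of these 33 lay in its own introns and 10 in intergenic sequence. They formed runs, with neighbours less than 10 kb apart. A run of 14 shared peaks covered 38.1 kb around its 3′ end, and others of 9 and 10 lay in the gene and at its 5′ end. The strongest distal peak of the whole set was the intergenic one shown above, on chromosome 5 from 107087456 to 107087625, 18.9 kb past the 3′ end, with values of 117 and 148 (percentiles 97.7 and 99.6) in a hotspot of 1790 and 1895 bp.

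Smad3, which transmits TGF-beta and activin signals, had 28 (30 and 57), of which 20 were in its own introns. Its strongest, on chromosome 9 from 63659036 to 63659185, had 79 and 121 (percentiles 82.6 and 89.0) and an NFI match. Smad6 had 20 (23 and 43), with its strongest in an intron, on chromosome 9 from 63968656 to 63968845 (100 and 141). Smad7 had 17 (24 and 36), and its strongest (99 and 140), at 75448236 to 75448405 of chromosome 18, was intronic to a neighbouring gene 52.3 kb past its end. Of the 17 at Smad7 only 2 were in its own introns, against 12 of 20 at Smad6.

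Tgfb2 had 15 (15 and 28), the strongest of them (91 and 131) 12.6 kb beyond the gene, at 186609996 to 186610165 of chromosome 1. That distal peak, at percentiles 88.9 and 93.5, ranked above the promoter of the gene, at 42.5 and 66.5. Tgfbr2 had 14 (15 and 25), with the strongest (82 and 120) in one of its exons, at 116087976 to 116088145 of chromosome 9, a distance of 87.2 kb. Smad2 had 11 (11 and 24), the strongest 67.7 kb upstream of the gene on chromosome 18 from 76173736 to 76173885 (68 and 116).

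Of the 22 members without an accessible promoter 18 (81.8%) had at least 1 shared distal peak, beside 53.1% of all such genes. Their median territory was also longer, 104.5 kb beside 41.0 kb, and the pooled number per 100 kb was 3.94 beside 2.70. Gdf6, known from skeletal development, had 11 (12 and 17), all intergenic and 9 of them upstream, with the strongest at -73.8 kb on chromosome 4 from 9770516 to 9770705 (73 and 126) in a hotspot of 1952 and 2028 bp. Bmpr1b had 10 (11 and 14) in a territory of 341 kb, or 2.93 per 100 kb, with the strongest in one of its exons, on chromosome 3 from 141862916 to 141863065 (66 and 113). Acvr1c had 8 (8 and 11), 7 of them in its own introns, but its strongest had only 31 and 86 (percentiles 26.6 and 66.5). Gdf15 had 5 within a span of 7.25 kb, or 29.3 per 100 kb of territory.

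Acvr2a completed the 10 genes with the most, by symbol among 4 genes with 9 each (9 and 21 in the libraries), and its strongest was intronic, on chromosome 2 from 48886156 to 48886325 (91 and 110). The others with 9 were Bmp5, Smad5 and Tgfb3. Acvr1b and Acvrl1, which lie side by side on chromosome 15, shared a run of 13 peaks over 57.2 kb. That run holds the second strongest distal peak of the set, in an intron of Acvr1b from 101191636 to 101191785 (120 and 138, percentiles 98.2 and 96.3). Smad9 had 1 shared distal peak and none counted in replicate 1, since the centre of the merged region lies more than 1000 bp from the start site and that of the replicate 1 peak does not.

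**Figure D4:**
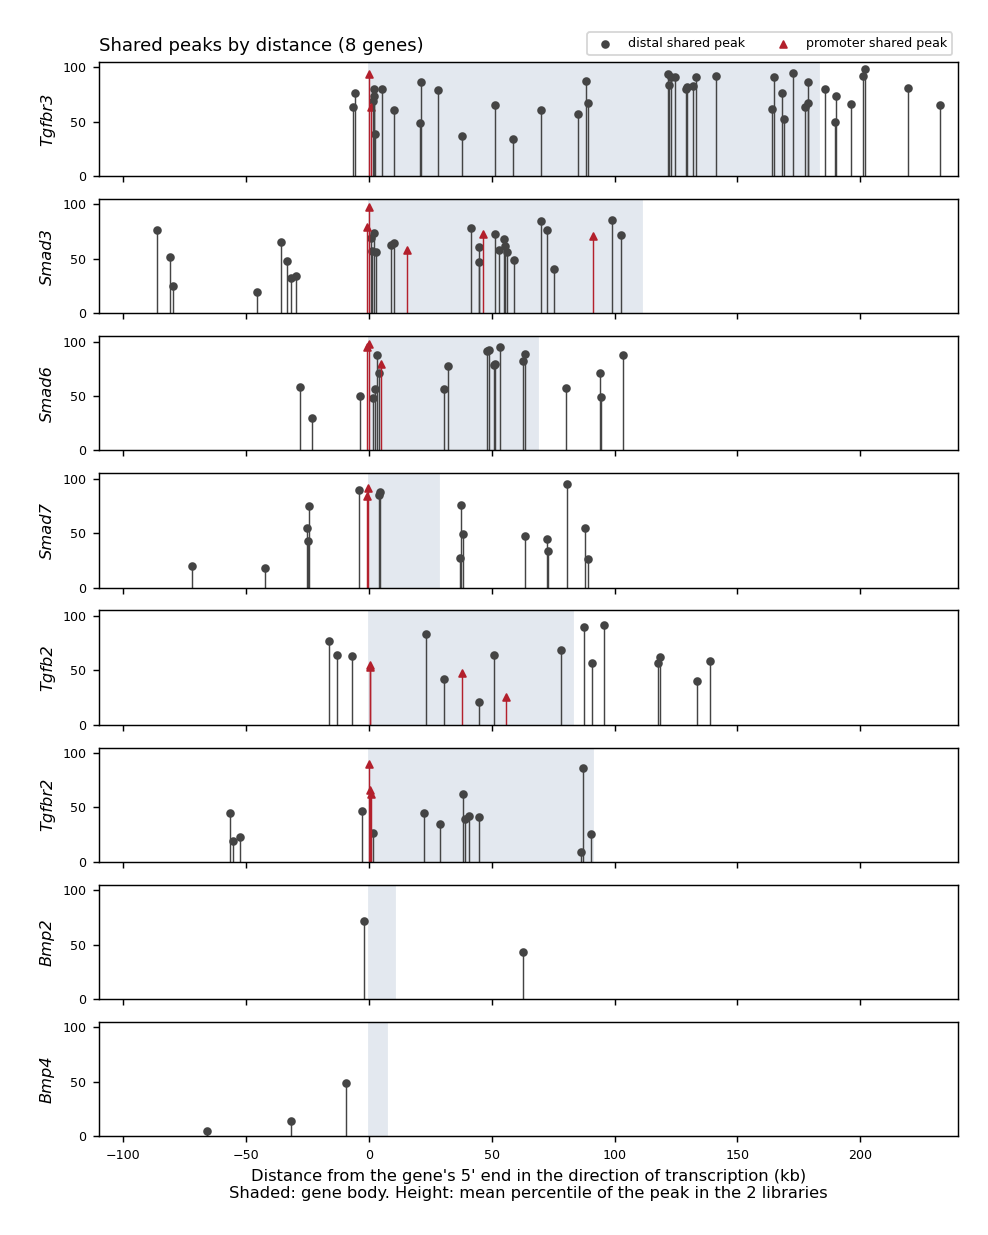
Shared peaks nearest to each of 8 genes by distance from the 5′ end of the gene in the direction of transcription (x axis, kb); height is the mean percentile of the peak in both libraries, circles are distal and triangles promoter peaks, and the shaded block is the gene body. Tgfbr3 and Smad6 have peaks within and past the gene, Smad3 has them within and upstream of it, and Bmp2 and Bmp4 have 2 and 3 distal peaks and no triangle.

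The distal peaks of the set lay much like those of all genes by gene part, and farther out by distance. Own introns held 46.7% (161 of 345) beside 46.2% of all assigned distal peaks, and intergenic sequence 44.9% beside 44.1%. Peaks between 50 and 100 kb from the start site made up 24.6% beside 14.8%, and the median distance was 20.5 kb beside 14.3 kb, with the longer territories of the members beside it. Their rank was close to that of all distal peaks in the middle of the lists, with median percentiles of 49.98 and 68.1 beside 51.4 and 68.9. In the top 10% of both lists stood 11 (3.19%) beside 6.30% of all. Of the replicate 1 distal peaks at members 91.7% overlapped a replicate 2 peak (91.9% for all genes), and of those of replicate 2 52.01% overlapped a replicate 1 peak (53.2%).

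Motifs were searched on both strands of the central 150 bp of each shared peak. For SMAD proteins these were the palindrome GTCTAGAC, the CAGA box AGCCAGACA, the GC-rich element GGCGCC and the BMP response element, which is GGCGCC and GTCT with 5 bases between and so contains the GC-rich element. The others were C/EBP (TTGCNCAA), PPAR-RXR (AGGNCA repeated after 1 base), NFI (TGGC and GCCA with 5 bases between), AP-1 (TGANTCA), the glucocorticoid receptor (GNACA and TGTNC with 3 bases between), TEAD (GGAATGT), EBF (CCCNNGGG) and CTCF (CCACNAG and GGC with 2 bases between). The AP-1 pattern allows any middle base and so is looser than the usual site, which has C or G there. The Acvr1b match printed above, TGAATCA, has A in that place. A match is a stretch of letters and not a bound site.

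At promoters, the SMAD palindrome was in 2 of the 76 shared peaks of the set (2.63%, exact binomial 95% interval 0.320 to 9.18) and in 34 of 24664 of all genes (0.14%). The pair were the peaks of the inhibitory SMAD genes. In Smad6 the element lies from 64022056 to 64022063 on chromosome 9, and in Smad7 from 75367176 to 75367183 on chromosome 18, 353 bp upstream of the nearest start site. A SMAD palindrome in the Smad7 promoter is known as a site of TGF-beta feedback. GGCGCC was in 16 of the 76 (21.1%, interval 12.5 to 31.9) beside 9.13% of all promoter peaks, with a median GC content of 61.0% beside 58.0%. These 16 are peaks and not genes, since Bmpr2 alone held several of them. No other SMAD motif had a match in the promoter peaks of the set.

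At distal sites the share of all distal peaks lay within the counting interval of the set for 11 of the 12 motifs, all but AP-1. C/EBP was in 18 of 345 (5.22%, exact binomial 95% interval 3.12 to 8.12) beside 4.29%. These lay at 11 genes, with 3 each at Bmpr1b and Tgfbr3 and 2 each at Nog, Smad2 and Smad7. The strongest was upstream of Smad7, at -4068 bp on chromosome 18 from 75363376 to 75363545 (91 and 123), followed by the intronic peak of Acvr1b printed above (83 and 126). NFI was in 3.19% beside 2.38% and TEAD in 3.19% beside 3.04%.

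AP-1, with any middle base, was in 23 peaks (6.67%, interval 4.27 to 9.84) beside 10.03% of all, above the upper bound of that interval. Of the 23, 5 were at Smad3 and 3 each at Tgfb2 and Tgfbr3. Matches with C or G in the middle were not counted apart. EBF was in 4.93% beside 5.64% and CTCF in 4.06% beside 5.13%. The CAGA box had 2 matches (0.580% beside 0.458%), in the Smad6 exon and the Acvr1 intron printed above. PPAR-RXR, the glucocorticoid receptor, the SMAD palindrome and the BMP response element had none among the 345, which allows a share of up to 0.870% by the rule of 3 counts, with 1.06% as the upper end of the exact interval. Their shares over all distal peaks, 0.635%, 0.475%, 0.137% and 0.0140%, are all under both limits. Intervals cover counting error over peaks only, are not adjusted over the 12 motifs and are given as a description.

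**Figure D5:**
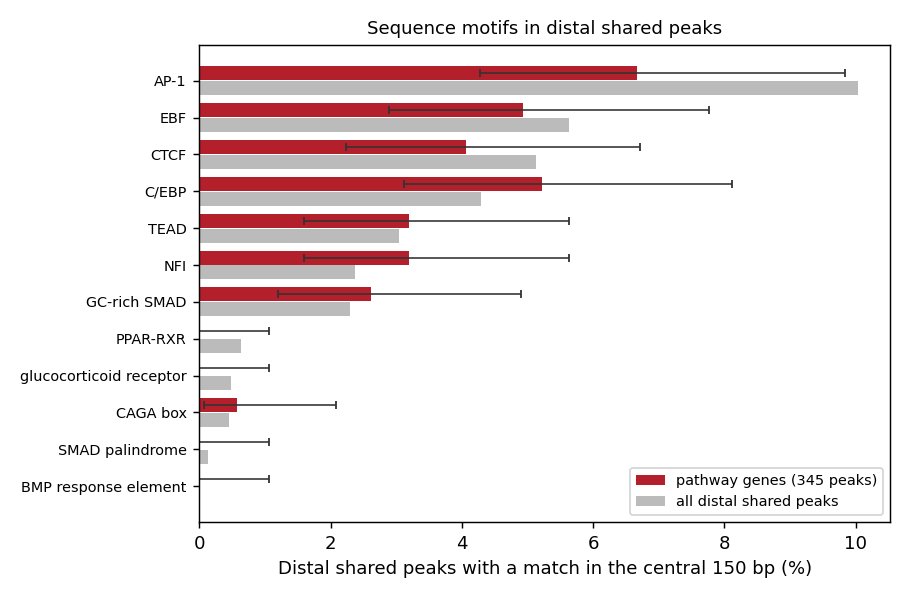
Share of distal shared peaks with a match to each motif in the central 150 bp (x axis, %), for the 345 peaks of the pathway genes (red, with exact binomial 95% intervals) and for all 78365 assigned distal shared peaks (grey, no interval). AP-1 is the motif whose grey bar, 10.03%, passes the upper end of the interval of the red one, 9.84%.

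Further genes of the pathway, 46 outside the set, were modulators, extracellular binding proteins and targets, with the ligand genes Nodal, Mstn, Amh, Lefty1 and Lefty2 and the receptor gene Amhr2 among them. They had an accessible promoter in 32 cases (69.6%, beside 57.2% of all genes). The median was 6 shared distal peaks beside 2 over all genes, with a median territory of 60.7 kb beside 40.7 kb. The pooled number per 100 kb was 8.88 beside 4.95. Bmper, a secreted BMP regulator, had 43, as many as Tgfbr3, and Ltbp1, which anchors latent TGF-beta in the matrix, had 32. Both have long territories. Bmper had 12.4 per 100 kb in 347 kb, beside 17.2 at Tgfbr3, and Ltbp1 had 6.87 in 465 kb. All genes with an accessible promoter had 6.68. Ltbp2 and the TGF-beta-induced matrix gene Tgfbi had 19 each, and the co-receptor gene Rgma and the ubiquitin ligase gene Smurf1 had 16 each. The 4 Id genes, the classical BMP targets, had accessible promoters and 12 (Id2), 11 (Id1), 11 (Id4) and 9 (Id3) distal peaks. The 14 without an accessible promoter were Chrdl1, Hfe2, Nodal, Lrrc32, Sost, Eng, Mstn, Nbl1, Sostdc1, Amhr2, Lefty2, Vwc2, Fstl3 and Lefty1.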

How the data were processed

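DNase-seq peak and hotspot lists of 2 libraries were taken as deposited. Per the labels the assembly was mm10, and each region list is credited to 1 filtered alignment in the deposited listing of its library, so replicates were not pooled. Aligner, peak caller and thresholds: not given in the sources used here. Peak lists, as deposited, give a score per peak (narrowPeak signal value, scale unknown, 1 to 150), used for ranks within a list alone, and the deposited hotspot lists a −log10 q value with a ceiling of 100, used only as regions. Identical lines (20 and 33) were counted once, and regions off the 21 nuclear chromosomes (337 and 603) were left out.

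Coordinates count from 1 on GRCm38, read from the RefSeq copy of that assembly with GENCODE M21. Start sites were those of every transcript of a protein-coding gene. Peaks overlapping by at least 1 bp were merged, and a merged region with a peak of each library was shared. Distances run from its centre, negative upstream. The percentile of a peak is its mid-rank in its library's list. The set is described by counts beside the same over all genes, with no test. The procedures were tested on simulated data, where 40 of 40 planted promoter peaks and 60 of 60 planted distal peaks were recovered. The members, lists and motifs were chosen with earlier results of these data known. Members are all accounted for by role. Peak positions are given for the promoter peaks highest in each role and for the strongest distal peak of the 10 members with the most, and the printed sequences were chosen after the values were seen. Alternatives varied the window, start sites, peak strength, overlap and assignment distance. Python 3.11.15, numpy 2.4.6, pandas 2.3.3 and scipy 1.17.1 were used.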

Additional observations from a re-analysis of the deposited data

How the results depend on the processing

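Of the 51 members 24 to 36 had an accessible promoter under every alternative, with 29 as reported: 24 with the stronger 50% of each list (Gdf11, Inhbe, Nog, Smad9 and Tgfb2 dropped out), 30 with hotspots in place of peaks (Grem1 added) and 36 with a window of 2500 bp (Acvr1c, Bmp2, Bmp6, Bmpr1b, Gdf15, Grem1 and Inhbb added). Leaving out a library gave 29 and 34. In none of the alternatives run did Bmp3, Bmp4, Bmp5, Bmp7 or Bmp10 gain a promoter peak. The total of 345 distal peaks was 171 with assignment within 20 kb and 173 with the stronger 50% of peaks, and 384 to 671 when a library was left out. The median of 5 per member became 2 under each of the first 2 of these settings, and 6 to 10 when a library was left out. These settings use a shorter reach, fewer peaks or a single list. Tgfbr3 had the most distal peaks in 9 of 10 alternatives, and Smad3 with assignment within 20 kb (19 against 17). For the 10 named members, 57 of 90 recomputed counts stayed within 1.5 times the reported ones. Of 24 recomputed motif shares 23 stayed within the binomial interval, the exception being the CAGA box, with no match in the stronger 50% of peaks. With Bmp8a and Bmp8b added the accessible promoters stayed at 29 and the distal peaks numbered 350. No paired analysis was possible because all samples belong to 1 group. Depth was unknown, so a promoter without a peak may be open below the authors' calling threshold.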
